A study of Mus musculus with 81 samples.

Results

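Older MT2 LTRs are the solo and paired long terminal repeats that endogenous retroviruses of the ERVL class left in the mouse genome before the MT2_Mm repeats of MERVL spread. They were taken here as every LTR locus whose RepeatMasker species name begins with MT2 but is not MT2_Mm, in all 4 deposited tables of mERV read counts. This rule gave 36929 of the 970384 LTR loci measured (3.81%), in 5 subtypes: 13959 MT2B, 10127 MT2A, 7238 MT2B1, 3655 MT2B2 and 1950 MT2C_Mm loci. MT2_Mm (2641 loci) and the internal regions of ERVL elements (9609 loci) were kept for comparison.

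F0 dams of the OG2 strain, in which an EGFP transgene under the Pou5f1 promoter and distal enhancer marks germline cells, drank water with 50 nM tributyltin (TBT) or with the solvent DMSO at 0.1%. Testes of their F1 and F3 male fetuses were dissected at E18.5 and sorted into EGFP-positive P4 and P5 germline cells, which differ in side scatter, and EGFP-negative P6 somatic cells. Only the F0 dams drank TBT, and F3 fetuses descend from them through matings within an exposure group. RNA was measured in 62 libraries: in F1, 5 DMSO and 7 TBT libraries of P4, 4 and 7 of P5, and 5 and 7 of P6, and in F3, 4 DMSO and 5 TBT libraries of each population. Methylated DNA was measured in 19 libraries of P6 cells, 3 DMSO and 4 TBT in F1 and 5 DMSO and 7 TBT in F3. The labels do not say which libraries come from separate litters, so p-values measure the spread between these libraries, part of which may be technical. The labels of the 7 TBT libraries of F1 P4 and P5 cells begin with 45 or 47, and what this first number marks is not given.

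An LTR carries the promoter and the polyadenylation signal of a retrovirus, and most LTRs of old elements survive without the viral genes that once lay between a pair of them. MT2_Mm is the LTR of MERVL, which is switched on in the early cleavage embryo by the transcription factor DUX, and many of its copies still flank internal sequence. The older MT2 subtypes belong to earlier relatives of MERVL and are mostly short remnants, so a read at one of them can come from a transcript that starts there or from any RNA that runs through it.

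The subtypes differed in length and place. MT2C_Mm loci had a median of 454.5 bases, MT2B1 290 and MT2A 236, but MT2B and MT2B2 only 109 and 106, against 492 for MT2_Mm and 261 for all LTR loci. By the GENCODE vM21 annotation of GRCm38, 66.4 to 70.4% of MT2A, MT2B1 and MT2C_Mm loci lay outside genes, close to the 64.5% of all LTR loci. MT2B and MT2B2 lay in introns more often, with 50.6% and 47.6% of loci, against 33.0% of all LTR loci. Exons overlapped 3.47% of older MT2 loci and 8.14% of MT2_Mm loci. An ERVL internal region lay within 500 bases of 59.6% of MT2_Mm loci, but of only 1.25% of MT2B, 2.19% of MT2B2, 8.21% of MT2A, 9.67% of MT2B1 and 12.4% of MT2C_Mm loci. The Y chromosome held 7.68% of MT2A loci (778) and 0.164 to 3.91% of the other older subtypes, against 4.15% of all LTR loci.

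The sequences below are, among loci of at least 200 bases outside genes, those of highest read level per kb in F1 P4 cells for MT2C_Mm, MT2B1, MT2B and MT2B2. The MT2_Mm locus that held most MT2_Mm signal outside genes in F1 P4 cells is shown for comparison. They are plus-strand bases of GRCm38, since the deposited names give no strand. Capitals mark, on either strand, the DUX core GATTCAATC, the nuclear receptor word AGGTCA, the GATA word AGATAA, the octamer ATGCAAAT and the polyadenylation signal AATAAA. The MT2C_Mm and MT2B1 loci abut on chromosome 6 and are shown by their first 300 of 466 and 426 bases. The MT2B locus on chromosome 19 is shown by its last 300 of 587 bases.
MT2C_Mm, chr6:50920536-50920835: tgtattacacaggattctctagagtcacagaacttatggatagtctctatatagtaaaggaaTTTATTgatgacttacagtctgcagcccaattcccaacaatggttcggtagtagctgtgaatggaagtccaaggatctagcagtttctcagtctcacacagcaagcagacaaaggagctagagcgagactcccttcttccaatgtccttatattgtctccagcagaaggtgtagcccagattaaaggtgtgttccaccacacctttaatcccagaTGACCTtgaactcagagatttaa
MT2B1, chr6:50920110-50920409: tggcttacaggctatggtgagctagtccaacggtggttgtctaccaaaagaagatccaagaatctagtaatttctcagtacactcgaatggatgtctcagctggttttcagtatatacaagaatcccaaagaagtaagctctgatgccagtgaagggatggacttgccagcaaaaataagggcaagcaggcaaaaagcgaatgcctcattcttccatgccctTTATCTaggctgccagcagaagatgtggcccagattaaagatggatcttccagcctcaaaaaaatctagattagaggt
MT2B, chr19:30479855-30480154: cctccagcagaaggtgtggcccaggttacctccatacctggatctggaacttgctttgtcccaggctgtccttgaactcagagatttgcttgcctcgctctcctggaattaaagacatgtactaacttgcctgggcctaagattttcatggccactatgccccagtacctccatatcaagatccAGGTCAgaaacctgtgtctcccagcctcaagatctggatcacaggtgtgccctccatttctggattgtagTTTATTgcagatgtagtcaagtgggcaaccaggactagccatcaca
MT2B2, chr6:115684720-115684997: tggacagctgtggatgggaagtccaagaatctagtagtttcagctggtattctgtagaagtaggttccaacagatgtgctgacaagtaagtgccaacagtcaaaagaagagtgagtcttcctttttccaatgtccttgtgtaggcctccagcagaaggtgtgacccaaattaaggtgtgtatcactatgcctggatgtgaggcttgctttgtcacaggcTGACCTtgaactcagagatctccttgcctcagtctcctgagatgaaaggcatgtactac
MT2_Mm, chr2:157528080-157528349: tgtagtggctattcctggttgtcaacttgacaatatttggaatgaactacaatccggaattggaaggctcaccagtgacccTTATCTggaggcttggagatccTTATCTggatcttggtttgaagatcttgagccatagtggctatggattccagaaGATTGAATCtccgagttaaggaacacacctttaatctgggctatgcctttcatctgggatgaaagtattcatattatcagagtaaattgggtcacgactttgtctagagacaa

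What set the older subtypes apart from MT2_Mm in sequence was seen over the loci of 300 to 600 bases. The DUX core was in 88.9% of MT2_Mm loci and in 0.660% of older MT2 loci, next to 0.898% of all LTR loci of that length. The GATA word AGATAA was in 99.0% of MT2_Mm loci, 21.0% of older MT2 loci and 21.2% of all LTR loci. CpG density was 1.18 per 100 bases in MT2_Mm and 0.408 to 0.635 in the older subtypes, against 0.856 over all LTR loci.

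The word AGGTCA, to which nuclear receptors such as PPAR and RXR bind, went the other way. It was in 86.9% of MT2C_Mm and 82.1% of MT2B2 loci, 36.7% of MT2B, 16.7% of MT2A and 10.1% of MT2B1 loci, but in 3.44% of MT2_Mm and 25.3% of all LTR loci. In MT2C_Mm loci with a single copy of the word, the most common base at each of the 7 places on either side spelled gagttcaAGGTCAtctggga, which 214 of these 683 loci matched in full. In MT2B2 it spelled aagttcaAGGTCAgaaaggt, which 0 of 323 loci matched in full, and 44.9 to 95.4% of them held the common base at a given place. The direct repeat of this word with 1 base between the copies, the element of PPAR and RXR dimers, was in 1 older MT2 locus of 10600, and in 0.0232% of all LTR loci. TBT is known as a ligand of PPARG and RXR, which is why these words were counted. A word match describes the letters and not binding. In MT2C_Mm, the nuclear receptor word with its common left flank lies within the most common MT2B2 word of 14 bases, on the other strand. That MT2B2 word, given below, was in 35.6% of MT2C_Mm and 41.0% of MT2B2 autosomal loci of 300 bases or more. On chromosome 19, 66.4% of its copies lay outside all LTR loci, so these letters were not particular to LTRs. The octamer ATGCAAAT of POU5F1 was in 0.764% of older MT2 loci and 2.19% of all LTR loci.

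**Figure D1:**
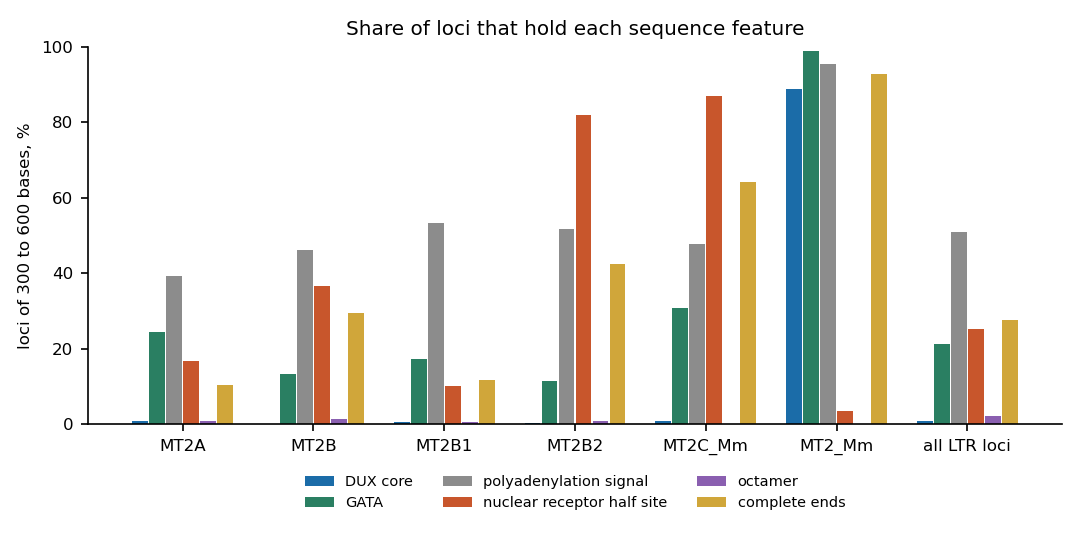
Share of loci of 300 to 600 bases (percent, vertical axis from 0 to 100) that hold each listed word or the TG and CA ends of an LTR, by subtype, with MT2_Mm and all LTR loci, as bars. MT2_Mm stands apart by the DUX core (88.9%) and AGATAA (99.0%), and MT2C_Mm and MT2B2 by AGGTCA (86.9% and 82.1%).

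The word AATAAA, at any place and on either strand, was in 46.6% of older MT2 loci against 95.6% of MT2_Mm and 50.9% of all LTR loci. Whether it acts as a polyadenylation signal was not tested. The TG and CA ends of an intact LTR were kept in 64.1% of MT2C_Mm, 42.4% of MT2B2, 29.4% of MT2B, 11.8% of MT2B1 and 10.5% of MT2A loci of 300 to 600 bases. The corresponding share was 92.8% in MT2_Mm and 27.5% over all LTR loci.

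The short MT2B loci held letters that were not particular to LTRs. The most common word of 14 bases in MT2B, CAGCCTGGTCTACA, was in 13.1% of autosomal MT2B loci, and 97.0% of its 3395 copies on chromosome 19 lay outside all LTR loci. It was in 1505 of 10917 MT2B loci under 150 bases (13.8%) but in 6 of 950 loci of 300 bases or more (0.632%), and in no more than 0.39% of MT2A, MT2B1 and MT2C_Mm loci of any length class. These letters are also part of the consensus of B1, a short interspersed repeat. The most common words of MT2A, MT2B1 and MT2C_Mm lay outside LTR loci in 0 to 1.43% of their chromosome 19 copies, and that of MT2B2, TGACCTTGAACTCA, in 66.4%.

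Values are the normalised read counts of the authors, in which 1 read was worth the same at every locus of a library. Libraries of F1 held 2824806 to 6304053 reads at LTR loci and those of F3 246520 to 8161548. Of the F3 germline libraries, 4 held under 2000000 reads: P4 TBT 5 and 9, P5 DMSO 2 and P5 TBT 5, the last with 246520. The normalised values of a library summed to 235832 to 1421887 in the F3 germline table, lowest in P5 TBT 5. Older MT2 loci took 7.08 to 8.20% of LTR reads on average in each population. LTR loci inside germline genes summed to 9064 to 18025 in F1 P4, 6620 to 13911 in F1 P5 and 22.8 to 43.1 in F1 P6 cells, and loci inside Sertoli cell genes (4 of 7 listed genes hold any) to 843 to 1184 in F1 P6 and to 6.66 to 76.9 in F1 P4 and 18.3 to 108 in F1 P5 libraries. Loci inside Leydig cell genes (3 of 6) summed to 187 to 477 in F1 P6, 7.68 to 219 in F1 P4 and 10.2 to 60.5 in F1 P5 cells, so the highest P4 library lay within the P6 range. The same germline sum was 968 to 13901 in F3 P4, 172 to 10410 in F3 P5 and 14.4 to 184 in F3 P6 cells, where DMSO libraries had 14.4 to 184 and TBT libraries 16.3 to 22.8. P4 and P5 share a table in each generation and P6 has its own, so levels in P6 and in the other generation are set side by side without a test.

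Most loci were seen, but almost all of the signal lay inside genes. At least 1 read in any library was found at 25665 of the 36929 older MT2 loci (69.5%), from 59.5% of MT2A to 78.1% of MT2B2, next to 74.3% of MT2_Mm. The share was 55.1% outside genes, 88.8% in introns and 93.1% at exons. Introns carried 85.7 to 91.2% of the older MT2 signal and exons 7.97 to 9.17%, depending on population and generation. Loci outside genes, 57.7% of all older MT2 loci, carried 0.871% of it in F1 P4, 2.22% in F1 P5 and 0.702% in F1 P6 cells, and 1.63, 5.12 and 0.327% in the same populations of F3.

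Per kilobase of sequence, the short intron-rich subtypes were highest. Over all loci, MT2B had 30.9 ± 2.20 normalised reads per kb in F1 P4, 25.7 ± 2.45 in F1 P5 and 26.6 ± 1.64 in F1 P6 cells (SD, n = 12, 11 and 12 libraries). MT2B2 followed with 18.9 ± 1.19, 15.6 ± 1.31 and 14.4 ± 0.604. MT2A, MT2B1 and MT2C_Mm lay between 2.73 and 3.77 in each, near the 2.20 to 2.83 of MT2_Mm and the 2.99 to 3.32 of all LTR loci. In F3 the order was the same in every population, with MT2B at 33.0 ± 9.10, 24.7 ± 10.01 and 26.1 ± 0.431 (n = 9 each). The order of the lowest subtypes was not separated: MT2A, MT2B1 and MT2C_Mm differed by less than their SD in F3 P4 and F3 P5 cells.

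Length was only weakly related to the value of an intronic locus. Among tested loci in introns, the correlation of length with value was −0.05 to −0.07 (Spearman, across loci that share libraries and transcripts). Loci shorter than the 75-base read made up 27.5% of tested intronic loci in F1 P4 cells and had a median value of 5.43, against 4.73 for loci of 300 bases or more. An MT2B locus of 13 bases in an intron of Erh, at chr12:80638932-80638944, held 471 to 3163 reads in the F3 P4 libraries.

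Many intronic loci also shared their counts. In F1 P4 cells, 57.5% of tested older MT2 loci had the same number of reads in every library as another LTR locus, and 57.0% had such a partner in the same gene. The share was 61.3% in introns, 0% outside genes and 66.9% over all tested LTR loci. In the other populations it was 26.4 to 57.0% of tested older MT2 loci. Outside genes it was 0.641% in F1 P5, 10.7% in F3 P4 and 12.1% in F3 P5 cells, next to 1.01, 9.80 and 10.4% of all LTR loci outside genes, and 0% in P6 cells. The pair of MT2B2 loci in introns of Fkbp6, a gene of the piRNA pathway, at chr5:135325988-135326005 (18 bases) and chr5:135327024-135327082 (59 bases), is of this kind. Whether a spliced read that jumps over a locus was counted at it was not tested, and values inside genes are given as read counts at loci and not as transcripts of LTRs.

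Outside genes the order of the populations was P5 above P4 above P6, in both generations. The older MT2 total per kb was 0.154 ± 0.0132 in F1 P4, 0.334 ± 0.072 in F1 P5 and 0.106 ± 0.126 in F1 P6 cells, and 0.307 ± 0.112, 0.746 ± 0.340 and 0.0485 ± 0.00666 in F3. All 11 F1 P5 libraries, at summed values of 1102 to 2184, lay above all 12 F1 P4 libraries, at 626 to 830. The F1 P6 libraries lay at 138 to 399 but for TBT 7 and TBT 8, which reached 1851 and 1807, and the F3 P6 libraries at 196 to 286.

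Each subtype kept that order of means. In F1 P4, P5 and P6 cells MT2A had 0.170 ± 0.0193, 0.294 ± 0.0546 and 0.0829 ± 0.113 per kb, and MT2C_Mm 0.135 ± 0.0229, 0.288 ± 0.0555 and 0.0831 ± 0.119. MT2B was the highest subtype outside genes in P5 cells, with 0.473 ± 0.119 in F1 and 1.25 ± 0.706 in F3, followed by MT2B2 with 0.400 ± 0.0888 and 0.842 ± 0.469. All LTR loci outside genes had 0.106, 0.249 and 0.106 per kb in F1. In bulk libraries, more cells that transcribe a locus and more RNA per cell cannot be told apart.

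**Figure D2:**
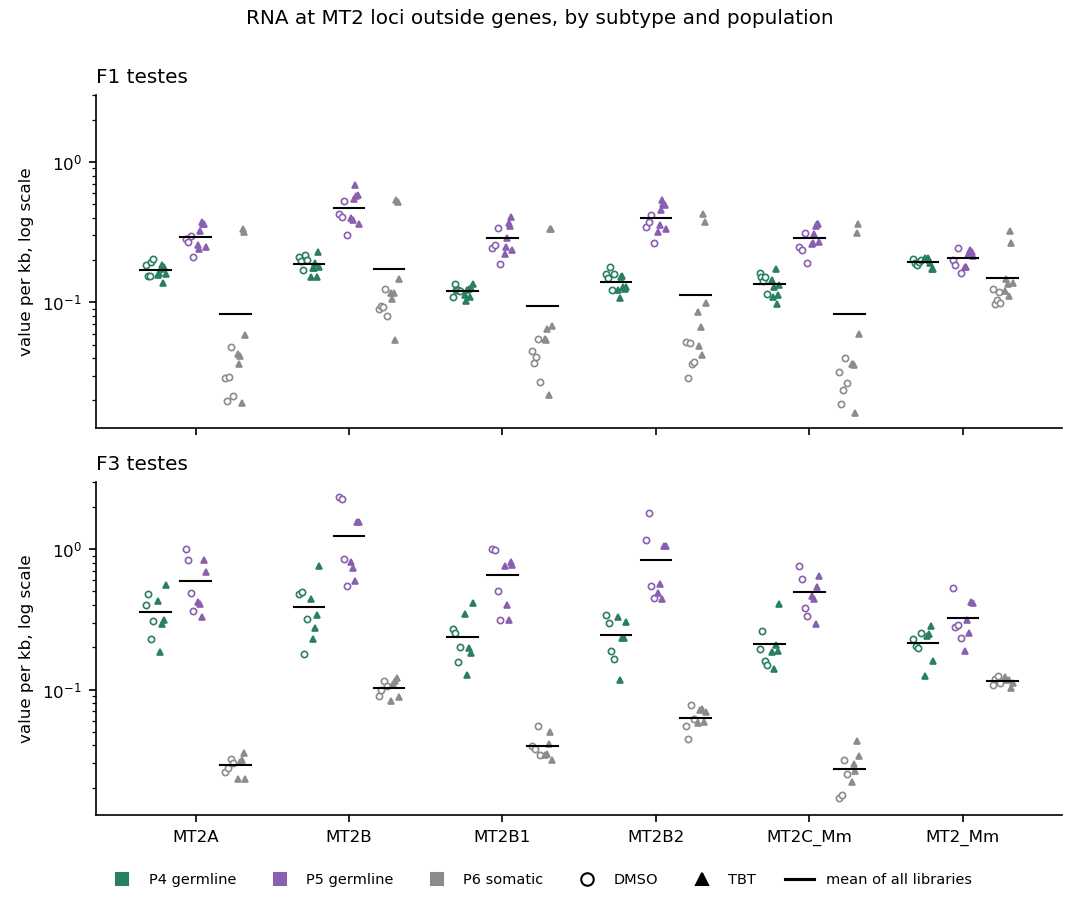
Normalised reads per kb at loci outside genes (vertical log axis) for each older MT2 subtype and MT2_Mm, 1 point a library and a line at the mean, by population, generation and exposure. P5 lies above P4 in F1 for every older subtype without overlap, and P6 has the lowest means, with F1 TBT 7 and 8 above the other P6 libraries.

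Few loci outside genes stood out. Only 105 of 21296 in F1 P4, 312 in F1 P5 and 12 in F1 P6 cells had a mean high enough to be tested, and the 10 highest loci held 16.3, 7.78 and 8.47% of the older MT2 signal outside genes. In F3 the numbers were 253, 546 and 29 loci, and 17.6, 7.82 and 18.1%.

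The abutting MT2B1 and MT2C_Mm loci of chromosome 6, whose sequences are printed above, were the highest of their subtypes per kb outside genes in F1 P4 cells, 9374 and 9800 bases from the non-coding gene Gm31579. The MT2C_Mm locus had 10.7, 17.5 and 23.7 normalised reads (lowest, median, highest of 12) in F1 P4, 12.3, 17.3 and 25.6 in F1 P5, and 0 in 11 of 12 F1 P6 libraries. The MT2B1 locus had 5.72, 16.0 and 22.4 in F1 P4 and 8.86, 14.3 and 21.9 in F1 P5. P4 and P5 overlapped fully at both, with log2 differences of 0.01 (SE 0.135, FDR 0.957) and −0.04 (SE 0.174, FDR 0.885), and no F1 P6 library reached 1. In F3 the MT2C_Mm locus spread from 0 to 64.5 in P4 and from 0 to 28.5 in P5 cells.

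An MT2A locus at chr18:69148817-69149186, 24800 bases from Gm23536, had the highest value of the older MT2 loci named outside genes: 20.1, 25.8 and 41.5 in F1 P4, 21.4 ± 5.96 in F1 P5 and 0 in all F1 P6 libraries. In F3 it had 72.5 ± 37.3 in P4 and 37.5 ± 32.8 in P5 cells. The MT2B locus of chromosome 19 had 5.07 ± 3.01 in F1 P4, 4.21 ± 3.20 in F1 P5 and 0 in every P6 library of both generations. All these loci were read in the germline and not, or barely, in P6 cells.

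P6 cells had their own, lower, set outside genes. Named here is the locus of each subtype with the highest value per kb in F1 P6 among those of at least 200 bases. The highest was an MT2B1 locus at chr15:84705329-84705624, 1655 bases from Prr5, with 8.46 ± 3.65 in F1 P6 (2.31 to 16.0) and 8.26 ± 2.72 in F3 P6, next to 1.22 ± 1.23 in F1 P4 and 1.65 ± 1.59 in F1 P5. An MT2B locus 231 bases from E430024I08Rik, at chr13:74434298-74434549, had 3.09 in F1 P6. The MT2A, MT2B2 and MT2C_Mm loci named by this rule had means of 1.38, 1.62 and 0.400 in F1 P6.

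Between germline and P6 cells many loci differed widely, and most of them lay inside genes. The 4085 older MT2 loci compared had enough signal in the germline or the P6 table, and not always in both. A locus barely read in the other table could therefore pass, which favours wide differences. Of the 4085, 377 (9.23%) were at least 4-fold higher in germline cells in both generations, next to 11.5% of all LTR loci. At least 4-fold higher in P6 in both generations were 660 (16.2%), next to 22% of all LTR loci. Of the 18 among the 4085 that lay outside genes, 14 were higher in germline cells and 0 in P6. Of 645 LTR loci outside genes, 60.3% and 23.3% were. These counts describe separately normalised tables and carry no test.

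The MT2B2 locus of 19 bases in an intron of Mael, which guards germ cells against transposons, at chr1:166224515-166224533, had 598, 722 and 788 in F1 P4, 343, 432 and 583 in F1 P5, and 0, 0.460 and 1.43 in F1 P6 cells. The Fkbp6 locus had 574 ± 111, 376 ± 91.9 and 0.757 ± 0.908. MT2B loci in Slc25a31, a germ cell ADP/ATP carrier, and Tuba3a, an alpha tubulin, at chr3:40720718-40720862 and chr6:125280624-125280733, had 205 ± 21.5 and 293 in F1 P4 and below 1 in F1 P6. These germline loci were lower in P5 than in P4 cells in both generations by their means.

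On the somatic side, the MT2B2 locus in Dcn, which encodes the matrix protein decorin, at chr10:97514793-97514911, had 467 ± 69.8 in F1 P6 and 3.87 and 5.31 in F1 P4 and P5. The MT2A locus at an exon of Smoc2, another matrix protein, at chr17:14340265-14340397, had 183 ± 27.5 in F1 P6 and under 2 in F1 germline cells. Both MT2B loci named in Gpc3, a glypican of the cell surface, at chrX:52450581-52450751 and chrX:52344579-52344686, had 172 and 187 in F1 P6, and the MT2B locus in C1qtnf7, at chr5:43576803-43576824, had 30.1 ± 3.84 there and at most 0.221 on average in the germline.

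**Figure D3:**
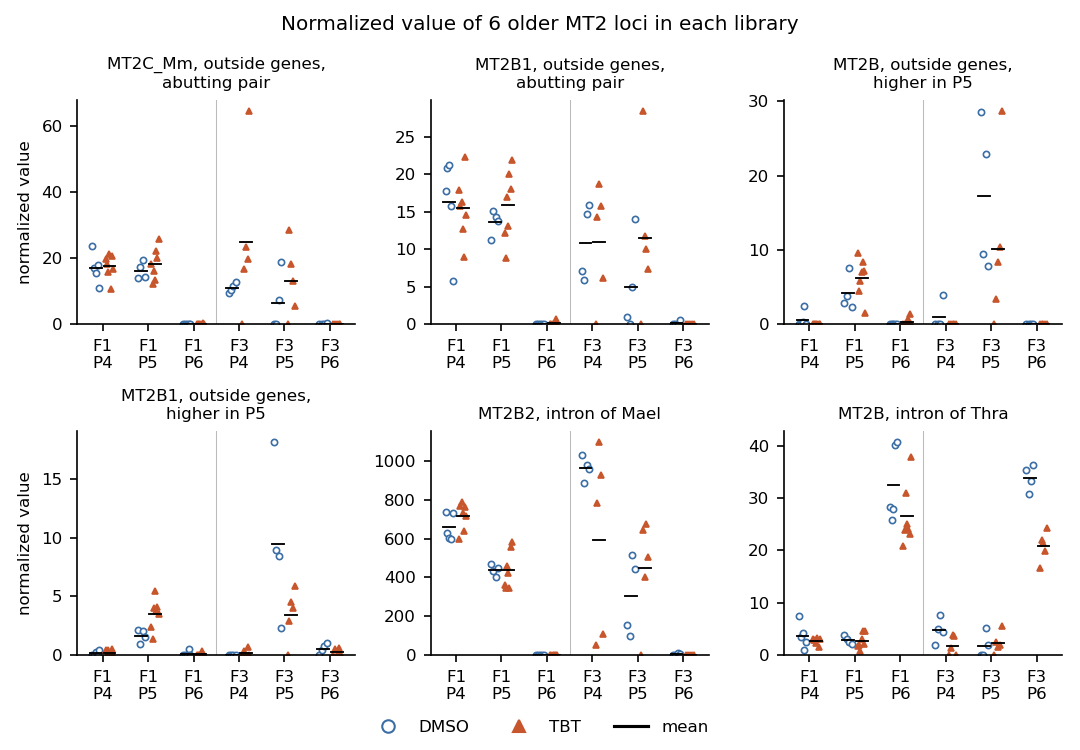
Normalised read counts (vertical linear axis from 0, with its own scale in each panel) of 6 older MT2 loci, 1 point a library and a line at the mean of each group, by population, generation and exposure. The Mael locus and the abutting chromosome 6 pair are high in P4 and P5 and near 0 in P6, the loci on chromosomes 8 and 10 are higher in P5 than in P4, and the Thra locus is high in P6.

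P5 was then compared with P4 cells at every tested locus, with exposure as a covariate. In F1, 973 of 6534 tested older MT2 loci were higher in P5 and 1695 lower at an FDR under 0.05, next to 39.3% of all tested LTR loci called either way. These are 14.9% and 25.9% of the older MT2 loci, where 17.6% and 21.6% of all LTR loci were higher and lower. With every library set to a common total the split was 1181 higher and 915 lower, and over all LTR loci 21% and 11.5%. In F3, limma called 35 of 5972, all of them higher in P5, or 0.586% next to 1.01% of all LTR loci (1% higher and 0.0112% lower). The edgeR quasi-likelihood test called 205, of which 200 were higher and 5 lower, or 3.43% next to 6.16% of all LTR loci. The median difference was −0.16 in F1 and −0.20 in F3, against −0.11 and −0.09 for all LTR loci.

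The medians of summed marker genes were also not the same in P4 and P5 libraries. In F1 the medians in P4 and P5 were 12472 and 8256 for germline, 18.8 and 36.5 for Sertoli, 15.5 and 27.8 for Leydig, 31.8 and 59.2 for endothelial, 9.22 and 15.9 for macrophage and 20.3 and 16.1 for interstitial genes. In F3 they were 8798 and 4926, 9.58 and 33.1, 7.92 and 9.57, 27.4 and 55.9, 8.15 and 10.8, and 21.1 and 12.6 in the same order. The ranges of P4 and P5 overlapped for each list in both generations, and the part of these cells in the differences between P5 and P4 was not tested.

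Outside genes most calls were higher in P5. Of 156 tested older MT2 loci outside genes in F1, 54 were higher in P5 and 4 lower, and over all LTR loci outside genes 42.5% were higher and 3.18% lower. Called or not, 115 of the 156 had a difference above 0 (73.7%, next to 75.4% of all LTR loci outside genes). The higher loci were 16 of 34 MT2B, 14 of 61 MT2A, 12 of 34 MT2B1, 10 of 18 MT2B2 and 2 of 9 MT2C_Mm loci. In introns 829 of 5889 were higher and 1595 lower (14.1% and 27.1%, next to 16.1% and 22.8% of all LTR loci in introns). In F3, 22 of 381 tested loci outside genes were higher (5.77%, next to 4.47% of all LTR loci outside genes), with 12 more in introns and 1 at an exon.

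The subtype totals outside genes moved the same way. Each of the 5 rose in F1 P5 cells without overlap between the P4 and P5 libraries: MT2B2 from 57.3 ± 8.40 to 163 ± 36.2 (log2 difference 1.49, SE 0.125), MT2B from 174 ± 22.9 to 439 ± 110 (1.30, SE 0.119), and MT2B1 from 158 ± 13.5 to 375 ± 91.3 (1.21, SE 0.112). MT2C_Mm rose from 63.5 ± 10.8 to 135 ± 26.1 (1.08, SE 0.124) and MT2A from 304 ± 34.7 to 526 ± 97.8 (0.77, SE 0.101). The call itself was common, at 94.1% of all LTR species totals outside genes, whose median difference was 1.34. Whether a subtype differed from that median was not tested.

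In F3 the same totals differed by 1.68 (MT2B2), 1.60 (MT2B), 1.41 (MT2B1) and 1.25 (MT2C_Mm), all called, and by 0.72 for MT2A (SE 0.321, FDR 0.0516), where 59.7% of species totals were called with a median of 1.40. Without the 4 libraries under 2000000 reads, MT2A was called too, at 0.88 (FDR 0.0235). It was also called without P4 DMSO 2, P4 TBT 5, P4 TBT 9, P5 DMSO 4, P5 TBT 5 or P5 TBT 7, at 0.76 to 0.83, and with a common total per library, at 1.03 (FDR 0.0463). With TBT libraries only, MT2B1 and MT2C_Mm lost their call (FDR 0.0554 and 0.0784). The order of the 5 subtypes by this difference was the same in both generations, and the F3 P4 and P5 libraries overlapped for all but MT2B2.

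MT2_Mm, the LTR of MERVL itself, had totals outside genes of 143 and 153 in F1 P4 and P5, a log2 difference of 0.08 (SE 0.096, FDR 0.408), and of 159 and 240 in F3 (0.56, FDR 0.112). A single locus held 76.8% of that F1 P4 total, the one printed above at chr2:157528080-157528349, 519 bases from Gm14287, which had 110 ± 9.62 in F1 P4 and 68.6 ± 7.06 in F1 P5. Without it, in a calculation chosen after seeing the data, MT2_Mm rose from 33.2 ± 5.12 (26.7 to 42.2) to 84.1 ± 21.9 (46.4 to 112), with no overlap. MERVL-int and MERVL_2A-int, the internal regions, differed by 2.37 and 1.77 outside genes in F1, both called.

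**Figure D4:**
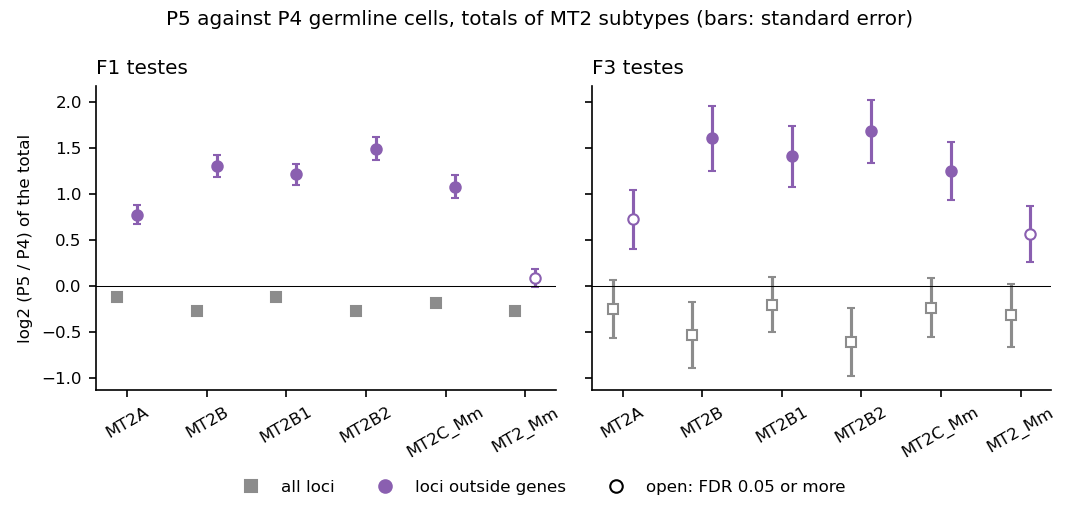
Log2 difference of species totals between P5 and P4 cells (vertical axis) with its standard error, for each older MT2 subtype and MT2_Mm, over all loci (squares) and outside genes (circles), in F1 and F3, with open symbols where the FDR was 0.05 or more. Outside genes the older subtypes lie at 0.72 to 1.68, and over all loci at −0.12 to −0.61.

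Over all loci, most of whose signal lay inside genes, the totals lay the other way as scaled by the authors. They fell in F1 P5 cells by 0.12 (MT2A and MT2B1) to 0.28 (MT2B2) on the log2 scale, all called, next to 67.5% of species totals. With a common total per library MT2A and MT2B1 were instead called as higher (0.035 and 0.038, FDR 0.000181 and 0.000769), and MT2C_Mm lost its call (−0.031, FDR 0.0993), so the direction of MT2A and MT2B1 and the call of MT2C_Mm rest on the scaling. In F3 the differences were −0.21 to −0.61 and none was called by limma with all libraries, next to 3.02% of species. Limma called MT2B and MT2B2 without the 4 libraries under 2000000 reads (−0.40 and −0.43, FDR 0.0088 and 0.00967) and with a common total (−0.23 and −0.30, FDR 0.0189 and 0.0332), where MT2A, MT2B1 and MT2C_Mm lay on the other side of 0 without a call (0.053, 0.097 and 0.069, FDR 0.164 to 0.669). It called MT2B2 also with DMSO libraries only (−0.81, FDR 0.0425).

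Loci called in both generations were few, and all were higher in P5. Of 5452 older MT2 loci tested in both, 16 were called in both (0.293%, next to 0.614% of all LTR loci tested in both). They are 0.657% of the 2437 F1 calls and 88.9% of the 18 F3 calls among those loci, where the shares over all LTR loci were 1.43% and 96.9%, and 11 of them lay outside genes. P4 and P5 did not overlap in F1 at 2 of these 16. Over all loci tested in F1, called or not, 2.16% of older MT2 loci and 2.11% of all LTR loci were higher in P5 without overlap. The share among all LTR loci called in both generations was not counted. The sequences of these 2 loci are printed because they were called in both generations without overlap in F1. The MT2B1 remnant lies outside genes, 137 bases from Gm10643, and the MT2B locus in an intron of Col11a1, a fibrillar collagen gene.
MT2B1, chr8:84063321-84063423: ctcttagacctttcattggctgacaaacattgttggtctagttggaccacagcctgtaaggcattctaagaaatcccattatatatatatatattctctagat
MT2B, chr3:114043657-114043833: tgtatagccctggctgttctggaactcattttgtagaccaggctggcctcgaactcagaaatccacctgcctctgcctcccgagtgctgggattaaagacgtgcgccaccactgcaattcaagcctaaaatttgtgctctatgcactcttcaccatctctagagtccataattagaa
No capitals appear in them because none of the words searched was in these windows.

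The MT2B1 locus had 0, 0 and 0.521 (lowest, median, highest) in F1 P4 and 0.934, 2.38 and 5.48 in F1 P5, a log2 difference of 2.96 (SE 0.368, FDR 9.82e-08). In F3 it had 0, 0 and 0.699 in P4 and 0, 4.49 and 18.2 in P5 (3.65, SE 0.758, FDR 0.0106). Every F1 P5 library was above every F1 P4 library, and in F3 1 P5 library held no read. With DMSO or TBT libraries alone, the F3 FDR was 0.116 or 1.00.

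The Col11a1 locus had 0, 0.192 and 1.16 in F1 P4 and 1.18, 2.89 and 5.22 in F1 P5 (2.93, SE 0.364, FDR 9.10e-08), and 0, 0 and 0.978 against 0, 4.01 and 17.1 in F3 (3.00, SE 0.759, FDR 0.0410). It was also read in P6 cells, at 1.97 ± 1.19 in F1 and 2.44 ± 0.700 in F3. Its F3 call was lost in 16 of the 18 fits that left out 1 library, with FDR values of 0.0503 to 0.106. These differences are on the log2(value + pseudocount) scale, which understates the change of loci this low. The Col11a1 sequence printed above holds, on the other strand, the most common word of MT2B. The letters of that word are also part of the B1 consensus, and 97.0% of its copies on chromosome 19 lay outside all LTR loci. Whether the reads at the Col11a1 locus came from these shared letters was not tested.

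The largest difference among the 16, in both generations, was at an MT2B1 locus in an intron of the non-coding gene Gm26573. It is given with an MT2B1 locus in an intron of the non-coding gene C230088H06Rik, and both were named after their values were seen. At chr4:146250607-146250883 the means were 0.548 ± 0.648 and 11.9 ± 5.09 in F1 (log2 difference 4.33, FDR 1.95e-10) and 0.928 and 33.6 in F3 (5.06, FDR 0.00107). At chr4:147112744-147113022 they were 0.323 and 5.62 in F1 (3.96) and 0.696 and 14.004 in F3 (4.03, FDR 0.00661). P4 and P5 overlapped at both in F1 and not in F3. Outside genes, the MT2B locus at chr10:21540385-21540988, 52156 bases from 1700020N01Rik, had 0.225 ± 0.708 against 5.49 ± 2.66 in F1 (4.10, SE 0.395) and 0.441 ± 1.32 against 13.3 ± 10.7 in F3 (4.48, FDR 0.00454). It held reads in 2 of 12 F1 P4 and all 11 F1 P5 libraries.

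The number of F3 calls by limma depended on single libraries. It was 14 to 114 when 1 library was left out (0.23 to 1.81%, next to 0.419 to 3.06% of all LTR loci in the same fits), with 114 without P5 TBT 5 (1.81%, next to 3.06%) and 14 without P4 DMSO 4 or P5 TBT 9 (0.242 and 0.23%, next to 0.514 and 0.419%). Without P4 DMSO 1, 2 or 3, P4 TBT 7 or P5 TBT 6 it was 16 to 18 (0.272 to 0.314%, next to 0.42 to 0.615%), and without P4 TBT 5, 6 or 8 it was 20 to 22 (0.347 to 0.38%, next to 0.661 to 0.765%). Without all 4 libraries under 2000000 reads it was 171, of which 146 were higher and 25 lower in P5 (2.61%, next to 3.65% of all LTR loci). With DMSO libraries only it was 5, of which 2 were higher and 3 lower in P5 (background 0.145%). With TBT libraries only it was 0 (background 0%).

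The comparison of TBT with DMSO descendants found almost no older MT2 locus by limma in any population. In F1 P4 cells 0 of 6080 tested loci were called by limma (background 0%), with 436 at an unadjusted p under 0.05. The edgeR quasi-likelihood test (background 0%) and DESeq2 (background 0.0164%) called 0 and the edgeR likelihood ratio test 4 (background 0.0982%), all lower in TBT, in Dcn, Ndfip1, Pcyox1 and Gpc3 (−1.27 to −3.02). In F1 P5 cells limma called 0 of 7393 (background 0.0106%), with 427 at p under 0.05, the quasi-likelihood test 0 (background 0.00327%), the likelihood ratio test 13 (background 0.32%) and DESeq2 5 (background 0.114%). The 5 were 2 loci in Sparc and 1 each in Macrod2 and Map4, all lower, and 1 MT2C_Mm locus outside genes on chromosome 19, higher. In F1 P6 cells limma called 0 of 5827 (background 0.00341%), with 203 at p under 0.05, the quasi-likelihood test 0 (background 0.00341%), and the likelihood ratio test (background 0.05%) and DESeq2 (background 0.0125%) the same 2 loci, in Klf11 and Appl1 and higher in TBT. Loci called only by these tools are named because they are few, after their values were seen. The share at p under 0.05 was 7.17, 5.78 and 3.48% of older MT2 loci and 7.09, 6.89 and 3.68% of all LTR loci.

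Sums of marker genes also differed between DMSO and TBT libraries in F1, in both directions. In F1 P4 cells the Leydig sum was 8.54 to 219 in DMSO (median 93.9) and 7.68 to 36.1 in TBT (median 12.3), and the Sertoli sum 16.0 to 76.9 and 6.66 to 37.0, with medians of 18.8 in both. The interstitial sum, over 3 of 4 listed genes, was 15.0 to 41.6 and 13.1 to 30.5 there, while the endothelial sum, over 4 of 4, was lower in DMSO (12.8 to 23.8) than in TBT (31.2 to 40.6). The Dcn locus and the Gpc3 locus are those given above as high in P6 cells. In F1 P5 cells the Sertoli sum was 25.2 to 108 in DMSO (median 70.4) and 18.3 to 46.5 in TBT (median 34.9), and the Leydig sum 22.2 to 60.5 and 10.2 to 45.1. In F1 P6 cells the germline sum was 22.8 to 27.8 in DMSO (median 24.9) and 24.7 to 43.1 in TBT (median 38.1), and the macrophage sum, over 3 of 4 listed genes, 24.0 to 34.5 (median 28.0) and 29.9 to 76.9 (median 46.2). In F1 P5 cells the medians in DMSO and TBT were 60.8 and 59.2 for endothelial, 17.0 and 16.1 for interstitial and 12.2 and 17.1 for macrophage genes. The part of these cells in the calls was not tested.

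In F3 P4 cells limma and the quasi-likelihood test called 0 of 5483 loci (background 0% for both), with 95 at p under 0.05 by limma, and the likelihood ratio test and DESeq2 also called 0 (background 0.00463% and 0.0139%). In F3 P5 cells limma called 0 of 6283 (background 0%), with 24 at p under 0.05, the quasi-likelihood test and DESeq2 0 (background 0% for both), and the likelihood ratio test 105, of which 30 were higher and 75 lower (1.67%, next to a background of 3.13%). In F3 P6 cells limma called 2 of 6804 loci, both lower (background 0.0343%, lower 0.0143%). There the quasi-likelihood test called 5, all lower (background 0.0582%), the likelihood ratio test 13, with 4 higher and 9 lower (background 0.32%), and DESeq2 5, with 2 higher and 3 lower (background 0.0963%). MT2_Mm and ERVL internal loci had 0 calls by limma in each of the 6 comparisons.

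The 2 loci lower in TBT-F3 P6 cells both lay in Thra, the gene of thyroid hormone receptor alpha, and are the only older MT2 loci that limma called for TBT against DMSO in the 6 populations with the filter and pseudocount used here. With no filter on low values it called 35 in F1 P5 (28 higher and 7 lower, or 0.169% next to 0.202% of all LTR loci) and 6 in F3 P6 (0.0503%, next to 0.0367%), and with a pseudocount of 4 units 4 in F3 P6 (0.0588%, next to 0.0506%). They are short, and are printed for that reason, with capitals as above.
MT2B, chr11:98758839-98758860: gtccagcagtggtggcacacac
MT2B2, chr11:98757445-98757526: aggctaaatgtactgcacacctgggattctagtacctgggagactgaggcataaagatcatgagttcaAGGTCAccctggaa

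The intronic MT2B locus of 22 bases had 35.3, 30.8, 33.2 and 36.2 normalised reads in the DMSO libraries and 16.5, 22.1, 21.5, 19.9 and 24.2 in the TBT libraries, from 90 to 184 reads each. All TBT libraries were below all DMSO libraries, and the log2 difference was −0.71 (SE 0.125, FDR 0.0362). The MT2B2 locus of 82 bases, which overlaps an exon, had 36.1, 31.1, 33.2 and 36.4 against 16.9, 22.9, 21.7, 20.1 and 24.8 (−0.69, SE 0.126, FDR 0.0421). The read numbers of both loci were nearly the same in every library, so they do not count as separate observations.

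In F1 P6 cells the same loci had 32.6 ± 7.23 and 26.5 ± 5.87, and 33.0 ± 7.16 and 26.9 ± 5.99, in DMSO and TBT, and in germline cells their means were 2.06 to 3.16. The F3 difference was called at both by the quasi-likelihood test (FDR 0.0124 and 0.0161), the likelihood ratio test and DESeq2. By limma the MT2B locus lost its call without DMSO 1, DMSO 4, TBT 5, TBT 6, TBT 7 or TBT 8 (FDR 0.0303 to 0.129 over all 9 fits), and the MT2B2 locus kept it only without DMSO 2 or TBT 9 (FDR 0.0329 to 0.160).

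The quasi-likelihood test called 3 other loci in F3 P6 cells, which were chosen here once their values were known. They were an MT2B2 locus of 19 bases in Mael, a gene of the germline piRNA pathway (−6.23), and 2 MT2B loci in the Y-chromosome gene Gm47283 (−1.52 and −1.56). The Mael locus had no read in 2 of 4 DMSO libraries and up to 39 reads in the others, and no read in 4 of 5 TBT libraries and 1 read in the other. The sum of germline marker genes in the same libraries was 14.4 to 184 in DMSO, with a median of 96.8, and 16.3 to 22.8 in TBT, and its part in these calls and in that of Thra was not tested. The Thra loci themselves had lower means in germline cells than in P6 cells. DESeq2 called the Thra pair and a locus in Rbx1 as lower, and loci in Lama2 and Nhsl2 as higher (0.81 each).

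In the other populations, the locus of lowest p in each direction among those whose groups did not overlap did not pass the FDR threshold by limma. The MT2C_Mm locus in an intron of Macrod2, at chr2:141387044-141387536, had 4.54, 8.17, 8.09 and 5.38 in DMSO and 0.417, 1.92 and 3.07 (lowest, median, highest) in TBT F1 P5 libraries (−1.85, SE 0.376, FDR 0.137). The MT2B2 locus in Col22a1, at chr15:71913615-71913712, lay the other way there, with 0.957, 2.33, 1.03 and 3.03 against 3.81, 4.16 and 9.18 (1.53, SE 0.333, FDR 0.170). Among 7393 tested loci, 30 were higher and 28 lower without overlap (0.406% and 0.379%, next to a background of 0.493% and 0.392%).

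In F1 P6 cells the MT2B locus in Appl1, an adaptor of signalling endosomes, at chr14:26961321-26961386, had 4.94, 3.72, 6.30, 6.50 and 4.91 in DMSO and a lowest, median and highest value of 8.49, 10.8 and 14.6 in the 7 TBT libraries (1.02, SE 0.196, FDR 0.329). In F1 P4 cells the MT2B locus in Cwc22, at chr2:77945061-77945165, had 0.895 ± 0.319 and 2.63 ± 1.09 (1.30, FDR 0.613), and that at an exon of Pcyox1, at chr6:86388046-86388167, 4.52 ± 3.15 and 0.861 ± 0.302 (−1.88, FDR 0.582). Groups without overlap were found at 7 higher and 9 lower loci in F1 P4 (background 0.236% and 0.151%) and at 5 and 11 in F1 P6 (0.0988% and 0.218%).

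In F3 P4 cells the MT2A locus at chr8:88612617-88612811, 13751 bases from Snx20, had no read in 3 DMSO libraries and 1 read in the other, and 23.0, 1.33, 5.63, 0.699 and 4.08 normalised reads in the TBT libraries (FDR 0.870). The 13-base locus in Erh had 894, 777, 524 and 501 in DMSO and 319, 318, 451, 450 and 325 in TBT (−0.83, SE 0.225, FDR 0.870). In F3 P5 cells the MT2B2 locus in the non-coding gene Gm49454, at chr10:67297974-67298543, held no read in any DMSO library and 13 to 30 reads in each TBT library (12.4, 4.66, 2.09, 8.81 and 8.79, FDR 1.00). The MT2B locus in Hydin, at chr8:110529181-110529201, had 3.07 ± 1.93 and 0.418 ± 0.471 (−2.34, SE 1.34, FDR 1.00).

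Groups without overlap counted 6 higher and 110 lower in F3 P4 (0.109% and 2.01%, background 0.141% and 1.76%), and 119 and 76 in F3 P6 (1.75% and 1.12%, background 1.76% and 1.14%). In F3 P5 cells they counted 4 and 6, or 0.0637% and 0.0955%, below the background of 0.166% and 0.262%. The median difference over tested older MT2 loci was −0.79 in F3 P4 cells, next to −0.69 over all LTR loci, and P4 TBT 5 and 9, with 833449 and 1187234 reads, had summed older MT2 values of 40499 and 57740 where the other 7 had 97644 to 111145.

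Subtype totals did not separate TBT from DMSO, and limma called 0 of the 5 in each of the 6 populations, over all loci and outside genes (background 0% in every case). Over all loci the log2 differences were 0.065 to 0.092 in F1 P4, 0.016 to 0.056 in F1 P5, 0.0057 to 0.045 in F1 P6 and −0.011 to −0.033 in F3 P6. In F3 P4 they were −0.36 to −0.50 next to a median of −0.41 over all species, and without the libraries under 2000000 reads −0.062 to 0.16. In F3 P5 they were −0.031 to −0.13, and without those libraries 0.21 to 0.31.

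The widest TBT difference outside genes was in F1 P6 cells and rested on 2 libraries. MT2A totals were 53.2 ± 20.3 in DMSO and 217 ± 249 in TBT (1.29, SE 0.635, FDR 0.256), MT2B2 totals 16.8 and 67.0 (1.43, FDR 0.256), and the other 3 subtypes differed by 0.78 to 1.25, next to a median of 1.22 over all species outside genes. TBT 7 and 8 held 2.63% and 2.62% of their older MT2 signal outside genes, and the next highest library 0.534%. Without both, the 5 differences were 0.10 to 0.69 (FDR 0.779 to 0.945). In F1 P5 cells the totals outside genes differed by 0.20 to 0.34 (all species 0.26), and 204 of 312 tested loci outside genes were higher in TBT with a median of 0.33 (all LTR loci outside genes 0.37).

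**Figure D5:**
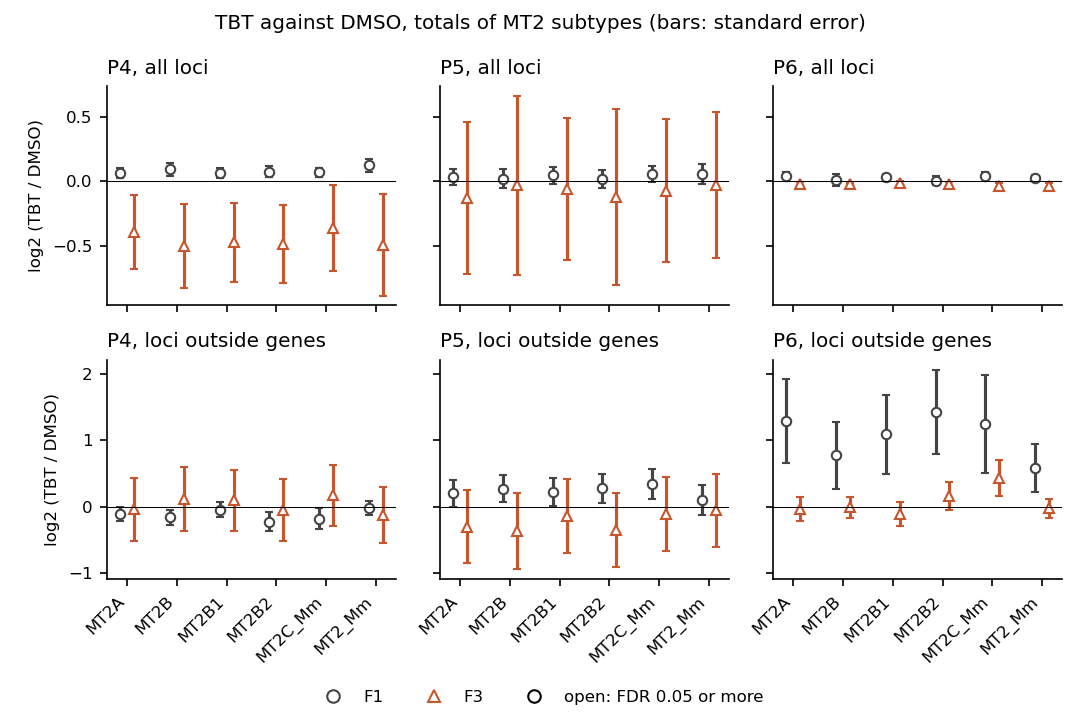
Log2 difference of species totals between TBT and DMSO libraries (vertical axis) with its standard error, for each older MT2 subtype and MT2_Mm, over all loci and outside genes, in each population of F1 and F3. None passed the FDR threshold, and the widest differences, 0.78 to 1.43 outside genes in F1 P6, fell to 0.10 to 0.69 without TBT 7 and 8.

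Whether the TBT difference itself differed between P5 and P4 cells was tested as an interaction. Limma called 0 of 6534 older MT2 loci in F1 (background 0.000986%), with 224 at p under 0.05, and 0 of 5972 in F3 (background 0%), with 50 at p under 0.05. No other tool was run on the interaction.

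DNA methylation was measured in P6 cells by MBD-seq, which pulls down methylated DNA and counts it in short windows. In F1, 390 deposited windows had at least 50 bases in 350 older MT2 loci, and 54 had enough counts to be tested. The edgeR quasi-likelihood test called 0 of them (background 0.0318%), with 2 at p under 0.05, and the likelihood ratio test and DESeq2 called 0. In F3, 451 windows lay in 390 older MT2 loci, and 131 were tested. The quasi-likelihood test called 0 of them (background 0%), with 8 at p under 0.05. The likelihood ratio test and DESeq2 also called 0. The shares over all windows by these 2 tools were not counted in either generation.

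The windows in older MT2 loci had a mean of 0.538 CpG in F1 and 0.661 in F3, against 0.818 and 0.813 over all windows. Their summed CPM values were 1938 ± 67.0 in DMSO and 1967 ± 28.1 in TBT in F1 (n = 3 and 4), and 2659 ± 57.5 and 2616 ± 88.5 in F3 (n = 5 and 7). The F3 difference was smaller than the SD of either group, and the F1 difference smaller than the DMSO SD and slightly above the TBT SD. The lowest p was that of a window in the MT2B1 locus at chr2:98647975-98648255, 13981 bases from Gm10801, with counts of 9, 10, 8, 5 and 8 in DMSO and 17, 13, 8, 12, 17, 17 and 18 in TBT F3 libraries (log2 difference 0.88, FDR 0.874). The lowest p among lower windows was at the MT2A locus of chr6:128158831-128158997 in F3 (−0.63, FDR 0.938), and in F1 at the MT2A locus in Abcc5, at chr16:20344859-20345323 (−0.65, FDR 0.976).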

How the data were processed

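RNA of 62 libraries and MBD-enriched DNA of 19 libraries were analysed. Per the methods of the authors, cDNA was made with the SMARTer kit and an oligo(dT) primer, sequenced as 75 + 75 nt pairs, trimmed, aligned to GRCm38/mm10 with STAR and counted with a modified ERVmap at every LTR locus of RepeatMasker. The deposited RNA values are a signal: read counts per locus divided by a TMM factor by the authors, with F1 and F3 germline and P6 cells in separate tables. Dividing a library by the value of its single read gave whole numbers at all loci (100%, tolerance 0.01), so reads were recovered. MBD data were deposited as unscaled counts in 100-base windows, each with its CpG number. How reads over splice junctions and reads matching several loci were counted is not given in the sources used here, and an oligo(dT) primer favours the 3' ends of polyadenylated RNA.

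Loci were placed against GENCODE vM21 (exon, intron or outside genes), with deposited starts read as counting from 0. A unit is the smallest value above 0 of a library, as the median of a table's libraries. Loci whose mean reached 5 units were tested with limma (lmFit and eBayes with a trend) on log2(value + 1 unit), adjusted over all LTR loci by Benjamini-Hochberg (FDR under 0.05). Species totals were fitted the same way over all of the 680 species. A fold on this scale understates the change of low loci. MBD windows with at least 50 bases in a locus were tested with edgeR (glmQLFit) after TMM and filterByExpr. Alternatives were another pseudocount, filter or scaling, edgeR and DESeq2 on recovered reads, a replicate block, leaving out libraries, and loci outside genes only. For TBT in F1 P4 and P5 cells the first label number was also fitted as a random effect. That fit called 0 older MT2 loci in both (background 0% and 0.0106%).

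Loci were named by rule: the lowest p each way among loci whose groups did not overlap, or the largest folds where the FDR passed; loci called in both generations and not overlapping in F1; the highest level per kb of each subtype among loci of at least 200 bases; and the widest germline to P6 ratios. Of the loci named in this way, a single one is not reported here. The members, lists and tests were chosen with earlier results of these data known. Scripts were tested on simulated data. R 4.3.3 with limma 3.58.1, edgeR 4.0.16, DESeq2 1.42.0, GenomicRanges 1.54.1 and rtracklayer 1.62.0, and Python 3.11.15 with pyfaidx 0.9.0.4 were used.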

Additional observations from a re-analysis of the deposited data

Results flagged for a closer look

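A single library far from the rest of its group was looked for by Dixon's test in 184 sets of 4 to 7 libraries, where chance alone gives about 1 in 20 sets. It found 10, listed here as values with no explanation.

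Over all loci, the older MT2 total of F3 P6 TBT 9 was 73822, above the 71559 to 72127 of the other TBT libraries, and its MT2B2 total was 10069 (others 9737 to 9805). F1 P6 TBT 11 had an MT2A total of 8713 (others 7673 to 8058) and an MT2B1 total of 7015 (others 6246 to 6433). F3 P5 TBT 5, the library of 246520 reads, had an MT2A total of 1777 (others 8720 to 11393) and an MT2C_Mm total of 437 (others 2027 to 2338). F3 P4 DMSO 3 had an MT2B1 total of 8457 (others 9172 to 9272).

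Outside genes, F3 P4 TBT 9, a library of under 2000000 reads, had an MT2C_Mm total of 192 (others 66.2 to 97.8). At the MT2A locus of chr8:88612617-88612811 in F3 P4 cells, DMSO 4 had 0.234 where the other DMSO libraries had 0, and TBT 5 had 23.0 where the other TBT libraries had 0.699 to 5.63.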

How the results depend on the processing

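The rise of older MT2 totals outside genes in P5 cells kept its direction under every alternative run in both generations, and its call at MT2B and MT2B2 in all of them. The small differences of totals between TBT and DMSO changed sign under several settings, with an FDR of at least 0.05 in each, and are printed for completeness. The alternatives for totals outside genes, and those without TBT 7 and 8, were chosen after seeing the data. Of 21296 loci outside genes, 105 to 546 had a mean high enough to be tested in a germline population. Beside each count or range of called loci stand its share of the older MT2 loci tested and the share of all LTR loci called.

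With each library set to a common total there were log2 differences of subtype totals of MT2A −0.0071, MT2B1 −0.0091 and MT2C_Mm −0.0049 for TBT in F1 P4, MT2A −0.0017, MT2B −0.011 and MT2B2 −0.017 for TBT in F1 P5, MT2B −0.018 and MT2B2 −0.021 for TBT in F1 P6, MT2A 0.017 and MT2C_Mm 0.046 for TBT in F3 P4, MT2A 0.0036, MT2B 0.10, MT2B1 0.073, MT2B2 0.013 and MT2C_Mm 0.062 for TBT in F3 P5, MT2A 0.035, MT2B1 0.038 and MT2C_Mm −0.031 for P5 against P4 in F1, MT2A 0.053, MT2B −0.23, MT2B1 0.097, MT2B2 −0.30 and MT2C_Mm 0.069 for P5 against P4 in F3. It also gave the summed older MT2 loci at −0.086 for P5 against P4 in F1. That setting gave log2 differences of totals outside genes of MT2A 1.03 for P5 against P4 in F3. With sums over loci outside genes only there were log2 differences of subtype totals of MT2A −0.11, MT2B −0.16, MT2B1 −0.041, MT2B2 −0.22 and MT2C_Mm −0.18 for TBT in F1 P4, MT2B 0.12, MT2B1 0.096 and MT2C_Mm 0.17 for TBT in F3 P4, MT2B2 0.16 and MT2C_Mm 0.43 for TBT in F3 P6, MT2A 0.77, MT2B 1.30, MT2B1 1.21, MT2B2 1.49 and MT2C_Mm 1.08 for P5 against P4 in F1, MT2A 0.72, MT2B 1.60, MT2B1 1.41, MT2B2 1.68 and MT2C_Mm 1.25 for P5 against P4 in F3. Under it there were the summed older MT2 loci at −0.12 for TBT in F1 P4, 0.25 for TBT in F1 P5, 1.07 for TBT in F1 P6, 0.039 for TBT in F3 P4, 0.0084 for TBT in F3 P6, 1.09 for P5 against P4 in F1, 1.23 for P5 against P4 in F3. With median-ratio scaling there were log2 differences of subtype totals of MT2A −0.0028, MT2B1 −0.0048 and MT2C_Mm −0.00057 for TBT in F1 P4, MT2A 0.031 and MT2C_Mm 0.060 for TBT in F3 P4. The edgeR likelihood ratio test on the recovered reads gave called loci numbering 4 for TBT in F1 P4 (0.0658%, all LTR loci 0.0982%), 13 for TBT in F1 P5 (0.176%, all LTR loci 0.32%), 2 for TBT in F1 P6 (0.0343%, all LTR loci 0.05%), 105 for TBT in F3 P5 (1.67%, all LTR loci 3.13%), 13 for TBT in F3 P6 (0.191%, all LTR loci 0.32%). With no filter on low values there were called loci numbering 35 for TBT in F1 P5 (0.169%, all LTR loci 0.202%), 6 for TBT in F3 P6 (0.0503%, all LTR loci 0.0367%), 13 for P5 against P4 in F3 (0.0671%, all LTR loci 0.0822%). DESeq2 on the recovered reads gave called loci numbering 5 for TBT in F1 P5 (0.0676%, all LTR loci 0.114%), 2 for TBT in F1 P6 (0.0343%, all LTR loci 0.0125%), 5 for TBT in F3 P6 (0.0735%, all LTR loci 0.0963%). The edgeR quasi-likelihood test on the recovered reads gave log2 differences of subtype totals of MT2A −0.0079, MT2B −0.017 and MT2B2 −0.023 for TBT in F1 P5, MT2A −0.0045, MT2B −0.037, MT2B1 −0.018, MT2B2 −0.042 and MT2C_Mm −0.0081 for TBT in F1 P6, MT2A 0.0012 and MT2C_Mm 0.037 for TBT in F3 P4, MT2A 0.023, MT2B 0.11, MT2B1 0.090, MT2B2 0.053 and MT2C_Mm 0.066 for TBT in F3 P5. There were also called loci numbering 5 for TBT in F3 P6 (0.0735%, all LTR loci 0.0582%), 205 for P5 against P4 in F3 (3.43%, all LTR loci 6.16%). With sums over the loci tested singly there were log2 differences of subtype totals of MT2B1 −0.0097, MT2B2 −0.0059 and MT2C_Mm −0.0021 for TBT in F1 P6. Without the libraries of under 2000000 reads there were log2 differences of subtype totals of MT2A 0.024 and MT2C_Mm 0.16 for TBT in F3 P4, MT2A 0.21, MT2B 0.26, MT2B1 0.21, MT2B2 0.31 and MT2C_Mm 0.22 for TBT in F3 P5, MT2B −0.40 and MT2B2 −0.43 for P5 against P4 in F3. It also gave called loci numbering 171 for P5 against P4 in F3 (2.61%, all LTR loci 3.65%). That setting gave log2 differences of totals outside genes of MT2A 0.88 for P5 against P4 in F3. With a pseudocount of 4 units there were called loci numbering 4 for TBT in F3 P6 (0.0588%, all LTR loci 0.0506%). With a pseudocount of 0.25 unit there were called loci numbering 1 for TBT in F3 P6 (0.0147%, all LTR loci 0.0229%). With only loci outside genes tested there were called loci numbering 0 for TBT in F3 P6 (0%, all LTR loci 0.0791%), 53 for P5 against P4 in F1 (34%, all LTR loci 41.6%). With DMSO libraries only there were called loci numbering 861 for P5 against P4 in F1 (13.3%, all LTR loci 12.4%), 5 for P5 against P4 in F3 (0.0806%, all LTR loci 0.145%). Under it there were log2 differences of subtype totals of MT2B2 −0.81 for P5 against P4 in F3. With a mean of at least 20 units there were called loci numbering 10 for P5 against P4 in F3 (0.378%, all LTR loci 0.58%). With TBT libraries only there were called loci numbering 0 for P5 against P4 in F3 (0%, all LTR loci 0%). There were also log2 differences of totals outside genes of MT2B1 1.30 and MT2C_Mm 1.12 for P5 against P4 in F3.

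Leaving out 1 library at a time gave the following ranges of log2 differences or of called loci where a call or a sign changed. For TBT in F1 P5 they were −0.024 to 0.041 (MT2B2), −0.024 to 0.049 (MT2B), −0.0012 to 0.051 (MT2A), 0 to 3 (called loci, 0 to 0.0416%, all LTR loci 0.00327 to 0.0498%). For TBT in F1 P6 they were −0.025 to 0.032 (MT2B), −0.017 to 0.024 (MT2B2), 0 to 1 (called loci, 0 to 0.017%, all LTR loci 0 to 0.0158%). For TBT in F3 P5 they were −0.27 to 0.50 (MT2B), −0.23 to 0.37 (MT2B1), −0.34 to 0.51 (MT2B2), −0.25 to 0.40 (MT2C_Mm), −0.30 to 0.37 (MT2A). For TBT in F3 P6 they were 0 to 5 (called loci, 0 to 0.0731%, all LTR loci 0.0114 to 0.136%). For P5 against P4 in F3 they were 14 to 114 (called loci, 0.23 to 1.81%, all LTR loci 0.419 to 3.06%), −0.36 to 6.3e-05 (MT2A), −0.34 to 0.0047 (MT2B1), −0.38 to 0.00090 (MT2C_Mm), 0.62 to 0.83 (MT2A outside genes). For the difference of the TBT effect in F1 they were −0.049 to 0.0019 (MT2B1), −0.045 to 0.0047 (MT2C_Mm). In F1 P5 cells the 3 calls came without DMSO 48-4, and in F1 P6 cells the single call without TBT 11.

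P4 and P5 libraries of the same number were compared for pairing in F1 and F3. Deviations from the group means correlated above 0.1 in 7 of 11 pairs in F1 (−0.012 to 0.499) and 7 of 9 in F3 (−0.202 to 0.584), so not every pair was above 0.1, and the labels do not say what a number marks. The numbers were therefore not treated as pairs, although 8 of 11 and 5 of 9 libraries correlated best with their own number, which is a hint of pairing from the data and not from the design. With the number of the label as a replicate block there were called loci numbering 74 for P5 against P4 in F3 (1.24%, all LTR loci 1.93%), 1 for the difference of the TBT effect in F1 (0.0153%, all LTR loci 0.00592%). It also gave log2 differences of totals outside genes of MT2A 0.72 for P5 against P4 in F3. It also gave log2 differences of subtype totals of MT2B1 0.0019 and MT2C_Mm 0.0047 for the difference of the TBT effect in F1. The block thus gained the call of the F3 MT2A total outside genes (FDR 0.00555). In F1, the block gave 3018 calls for P5 against P4 (46.2%, all LTR loci 44.7%).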
